A study of Mus musculus with 11 samples.

Results

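Sympathetic ganglia hold noradrenergic neurons wrapped by satellite glia. They were examined for the genes of voltage-gated sodium, potassium and calcium channels and of the HCN pacemaker channels. Members were the genes with a single-gene probe set whose symbol begins with Kcn or with Cacna, Cacnb or Cacng, or reads Scn, a number and a or b, or Hcn and a number. They came to 96 genes on 139 probe sets, out of 12393 genes with such a probe set. The rule takes the whole Kcn family, so inward rectifiers, K2P leak channels and calcium-activated potassium channels, which are not all gated by voltage, are included.

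RNA was taken from male C57BL mice of 78 weeks kept on normal chow, from fresh-frozen ganglion tissue cut out by laser capture. One group of 6 arrays carried the genotype apoE-/- and lacked apolipoprotein E, the lipid carrier whose loss leads to atherosclerosis in mice. The other group of 5 arrays was wild-type, and the labels name no further allele or treatment in either. By its title, the study asks how an atherosclerotic aorta and peripheral nerves affect each other. Labels do not tie an array to an animal, so the p-values measure the spread between these samples, which may be technical in part.

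Voltage-gated channels open when the membrane potential shifts and so shape the action potential. Sodium channel alpha subunits form the pore that starts the spike, and beta subunits are single-span proteins that set the pore's place and speed. Potassium channels end the spike and limit repeated firing, calcium channels couple it to transmitter release, and HCN channels carry a depolarising current at rest. In sympathetic neurons these currents decide how a ganglion cell answers the input from the spinal cord.

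The tissue and genotype labels were checked first. Th and Dbh, the genes of the noradrenaline-making enzymes tyrosine hydroxylase and dopamine beta-hydroxylase, had mean signals of 13299.6 ± 3333 and 11644 ± 3198 (SD, n = 6) in Apoe-deficient ganglia and of 14555 ± 2248 and 14358 ± 2540.4 (SD, n = 5) in wild-type ganglia. Apoe itself was lower in the Apoe-deficient arrays (log2 difference -6.75, SE 0.44, limma adjusted p = 1.88e-06). The arrays fell into 3 levels of hybridisation control signal. These were read from deposited signals that look scaled to one mean per array. Whether the levels come from the array step or from the sample therefore cannot be told. Apoe-deficient replicates 2, 3 and 4 formed the low level, which held no wild-type array, and the 3 called genes are given with and without these arrays, as are other genes where named so. Array medians of the deposited signal lay between 162 and 188.

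Of the 96 channel genes 42 passed the filter on low signals and were tested, and 54 lay below it. Differences are on the log2(signal + 16) scale after quantile normalisation, Apoe-deficient minus wild-type, and this scale understates the change of low genes. A gene counts as changed at a limma adjusted p under 0.05 over all 8433 genes tested. Of the 42 genes 27 passed the filter in all 11 arrays, and 6 passed in every array of one genotype but not of the other, so the tested genes are a selected part of the members.

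Scn3b and Kcnab2 fell and Scn7a rose in Apoe-deficient ganglia, and the other 39 tested channel genes did not pass the threshold. These 3 genes are 7.14% of those tested, where 1.93% of all genes tested passed, 1.26% higher and 0.676% lower. Members were chosen with earlier results of these data known, so the shares are a description and no test. Without the filter 2 of 96 channel genes passed, against 130 of 12393 genes. At an unadjusted p under 0.05 there were 12 channel genes of 42, or 28.6%, against 20.3% of all genes. Scn3b encodes a sodium channel beta subunit, Kcnab2 a cytoplasmic beta subunit of Kv1 potassium channels, and Scn7a the sodium-sensing channel Nax, an alpha-like protein that voltage does not readily open.

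The bases just before the annotated start of the called genes Kcnab2 and Scn7a, from RefSeq on build GRCm38.p6, are shown. Scn3b, the remaining called gene, had no promoter entry in the sequences used. Capitals mark the letters CCAAT on either strand, and both runs read 5′ to 3′ on the minus strand. The Kcnab2 stretch is chr4:152477550-152477799 and the Scn7a stretch chr2:66784911-66785160, each 250 bases long.

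Kcnab2: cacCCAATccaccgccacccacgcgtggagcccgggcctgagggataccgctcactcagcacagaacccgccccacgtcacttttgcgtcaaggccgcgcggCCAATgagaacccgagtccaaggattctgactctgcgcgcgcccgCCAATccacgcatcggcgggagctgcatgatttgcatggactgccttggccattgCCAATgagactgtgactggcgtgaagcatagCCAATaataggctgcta

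Scn7a: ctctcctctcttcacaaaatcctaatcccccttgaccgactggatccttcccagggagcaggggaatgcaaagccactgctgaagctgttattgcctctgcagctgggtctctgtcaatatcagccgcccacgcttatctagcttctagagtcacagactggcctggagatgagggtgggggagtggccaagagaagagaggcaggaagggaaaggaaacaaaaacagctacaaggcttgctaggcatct

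The Kcnab2 stretch held CCAAT 5 times, 20 CpG pairs and 61.2% G and C, and the Scn7a stretch held CCAAT 0 times, 3 CpG pairs and 53.2% G and C. At least 1 CCAAT was found in 33.8% of 32851 mouse promoter entries of the same length and at least 5 in 0.21%. The median entry had 6 CpG pairs. Among the 49 entries of the 36 tested channel genes that had any, 11 held CCAAT and 24 held the GC box GGGCGG on either strand, which 32.7% of all entries held. The core TGACG of the cyclic AMP response element, on either strand, occurred 2 times before Kcnab2 and 0 times before Scn7a, and in 17.8% of all entries. Kcnab2 has 3 annotated starts, of which the outermost is shown. Before both other starts CCAAT and TGACG occurred 0 times, with 3 and 5 CpG pairs and 54.0% and 56.4% G and C, closer to the Scn7a stretch, so the contrast holds for the outermost start and not for the gene. These matches describe the letters only.

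Scn3b, the sodium channel beta-3 subunit gene, had signals of 4886, 4143, 3329.8, 3762 and 3819 in the wild-type arrays. In the Apoe-deficient arrays its signal ran from 1935 through a median of 2166 to 2514. Every Apoe-deficient array lay below every wild-type array, at a mean of 2198 ± 237 (SD, n = 6) against 3988 ± 579.5 (SD, n = 5). This is a log2 difference of -0.85 (SE 0.11; adjusted p = 0.0011 by limma), or 1.80-fold lower. Scn3b was the only tested channel gene whose groups did not overlap, where 2.96% of all genes tested had groups that did not overlap and 1.51% had them apart in the downward direction. Its difference was -0.79 (adjusted p = 0.027) without the 3 low arrays, -0.84 with the control level as a block, -0.90 within the high level (adjusted p = 0.25) and -0.76 within the middle level (adjusted p = 0.11). These sizes were similar to that of the full fit, but few arrays stand behind those within a level. The high level compared 2 arrays with 2, the middle level held 1 Apoe-deficient array, and the low level allowed no comparison. The call was lost within the high and the middle level, and the part of the control level was not tested. A further probe set of Scn3b passed the filter and read 217 ± 102 (SD, n = 6) against 252 ± 71.3 (SD, n = 5). It differed by -0.28 (SE 0.28), and the mean of both probe sets by -0.57 (adjusted p = 0.080), so the call rests on 1 of its 2 probe sets.

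Kcnab2 had signals of 1572, 1304, 999, 851 and 1005 in the wild-type arrays and of 590.5 to 890.5, with a median of 679, in the Apoe-deficient arrays. Its product sits under the pore of Kv1 channels and acts on their inactivation and transport. Wild-type replicates 1 and 2 were the highest of all arrays, and the groups overlapped in 1 pair, Apoe-deficient replicate 5 lying above wild-type replicate 4. The means were 712 ± 104 (SD, n = 6) and 1146 ± 289 (SD, n = 5), and the log2 difference was -0.67 (SE 0.16, adjusted p = 0.042), or 1.59-fold lower. It stood close to the threshold and kept its call in 4 of the 11 fits that left out 1 array, with differences from -0.76 to -0.55. Those 4 left out wild-type replicate 4 or one of Apoe-deficient replicates 1, 5 and 6, and the call was lost without any of the other 7 arrays and when low signals were kept (adjusted p = 0.057). Without the 3 low arrays it was -0.51 (adjusted p = 0.38), within the high level -0.97 (adjusted p = 0.25) and within the middle level, with 1 Apoe-deficient array, -0.09 (adjusted p = 0.99). Another Kcnab2 probe set lay below the filter and differed by 0.40 (SE 0.36). Kcnab1, the paralogue of Kcnab2, differed by -0.53 (SE 0.30, adjusted p = 0.34).

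Scn7a had signals of 265, 168, 188, 406 and 249.5 in the wild-type arrays and of 396 to 778, with a median of 526, in the Apoe-deficient arrays. In peripheral nerve the gene is known from glia, chiefly non-myelinating Schwann cells, and from some neurons. Wild-type replicate 4 alone reached the Apoe-deficient range, and the 3 highest signals were those of the low control level arrays. The means were 541 ± 145 (SD, n = 6) and 255.5 ± 93.7 (SD, n = 5), and the log2 difference was 1.05 (SE 0.22, adjusted p = 0.025), or 2.07-fold higher. Its call held in 4 of the 11 fits without 1 array, where the difference ran from 0.93 to 1.24. Again these left out wild-type replicate 4 or one of Apoe-deficient replicates 1, 5 and 6, and the call was lost without any of the others (adjusted p from 0.060 to 0.079). Without the 3 low arrays it was 0.75 (adjusted p = 0.32), with the control level as a block 0.81 (adjusted p = 0.22), within the high level 0.97 and within the middle level 0.59. The direction was upward in each of these, and the call was lost in each.

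**Figure D1:**
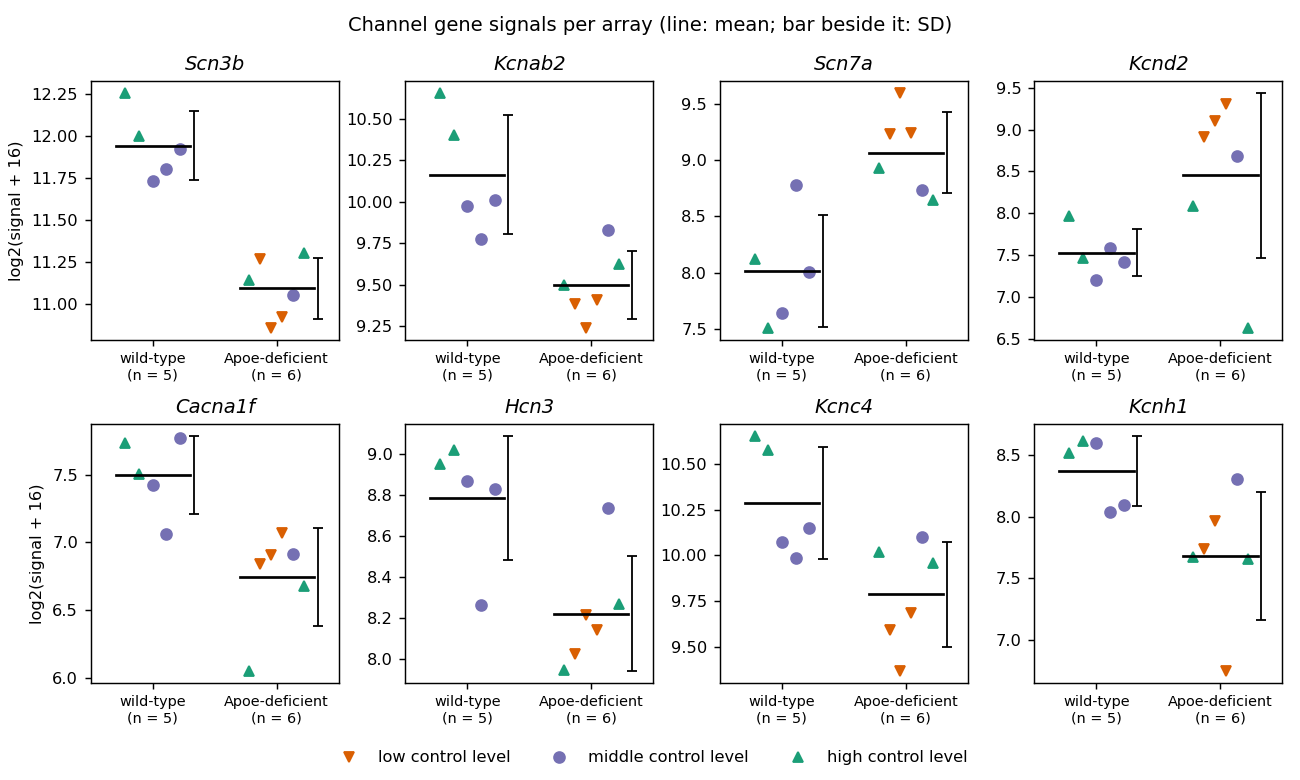
Log2(signal + 16) per array, after quantile normalisation, for 8 channel genes in 5 wild-type and 6 Apoe-deficient arrays. Lines are means, bars beside them are SD, and colour and shape give the hybridisation control level. Scn3b is the gene whose groups do not overlap, and the highest Scn7a and Kcnd2 values belong to the 3 low-level arrays.

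Cell type markers were set beside these differences. Of the 8 noradrenergic neuron markers on the array 8 were tested and 0 passed (median difference -0.01), and their summed signal ran from 43511 to 91713 in Apoe-deficient and from 63312.5 to 95334 in wild-type arrays. General neuron markers gave 0 of 9 (median -0.03, summed signal 55408 to 90752 against 70033 to 90791). Satellite glia markers besides Apoe, with the channel gene Kcnj10 among them, gave 0 of 7 (median 0.06, 11669 to 21759 against 11110 to 18602), and myelinating Schwann cell markers 0 of 4 (median -0.06, 12899 to 31796 against 13558 to 20831). Macrophage markers moved with the genotype, with 8 of 10 higher (median 0.80) and a summed signal of 7846 to 10916 against 5233 to 6662. Mast cell markers did too (4 of 5 higher, median 1.70, 1646.5 to 4886 against 633 to 1686.5), as did B and plasma cell markers (2 of 4 higher, median 2.85, 12098 to 66149 against 801 to 16977). No member passed in the lists of smooth muscle and pericytes (6 tested, median 0.10, 2745 to 4899 against 2362 to 5413), endothelium (6 tested, median 0.10, 1120 to 1959 against 1139 to 1880), adipocytes (5 tested, median -0.74, 3613 to 27311 against 10886 to 34136) or skeletal muscle (1 tested, Ckm at -0.24, summed signal 292 to 561 against 409.6 to 651). The part of macrophages and other immune cells in the channel differences was not tested, and in tissue RNA fewer cells of a type and less RNA per cell cannot be told apart.

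Pore-forming sodium channel subunits showed no common direction. Of 8 genes on the array 5 were tested, with a median of -0.10. Scn9a, the gene of Nav1.7, which amplifies small depolarisations in peripheral neurons, had wild-type signals of 67.8 to 115 and Apoe-deficient signals of 40.9 to 205, a difference of 0.50 (SE 0.30, adjusted p = 0.36). The 3 highest signals were those of the low control level arrays, and the difference was 0.11 when control level was a block, 0.01 within the high level and 0.23 within the middle level. It passed the filter in 5 Apoe-deficient arrays and 1 wild-type array, so its inclusion rested on the group in which it was higher. Scn1a (-0.25, SE 0.16), Scn8a (-0.12, SE 0.13) and Scn2a (-0.10, SE 0.18), which encode spike-generating channels of central and peripheral neurons, did not pass, which does not show that the groups were alike. Scn3a, Scn10a and Scn11a lay below the filter.

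Scn7a belongs to a run of sodium channel genes on chromosome 2, in the order Scn3a, Scn2a, Scn1a, Scn9a and Scn7a, the last 3 with no other coding gene between them. Along this run the differences were -0.17 for Scn3a, which was below the filter, then -0.10, -0.25, 0.50 and 1.05. Blocked by control level, Scn9a was at 0.11 and Scn7a at 0.81. Of the 5 genes only Scn7a passed. Apoe lies on chromosome 7, which holds 11 of the channel genes. There Kcna7 (0.79, SE 0.61), Kcnc1 (-0.28, SE 0.15) and Kcnn4 (-0.27, SE 0.21) were tested, and 0 passed.

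Pore-forming Kv subunits made up the largest tested class, with 11 of 20 genes past the filter and a median of -0.29, but 0 passed the threshold. Kcnc4, a Kv3 subunit gene, had wild-type signals of 1566.5, 1477, 1070, 999 and 1104 and Apoe-deficient signals of 653.5 to 1086 (-0.50, SE 0.16, adjusted p = 0.12). The lowest 3 Apoe-deficient values were those of the low level, and without these arrays the difference was -0.26. Another Kcnc4 probe set past the filter gave -0.75 (SE 0.34). Kcnh1, an ether-à-go-go channel gene, ran from 91.8 to 304.5 in Apoe-deficient and from 230 to 380 in wild-type arrays (-0.69, SE 0.23, adjusted p = 0.12). Kcnh7 (-0.36), Kcna1 (-0.35), Kcnh3 (-0.34), Kcnh2 (-0.29) and Kcnc1 also had negative differences past no threshold, and Kcna2 (0.01) and Kcna6 (0.10) were near 0.

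Kcnd2 had the highest difference of the Kv pores. It encodes Kv4.2, a pore subunit of the fast transient A-type potassium current, which delays the first spike. Its wild-type signals were 238, 162, 137, 163.5 and 163. The Apoe-deficient signals were 249.9, 474, 534, 624, 400 and 93.3 in replicates 1 to 6, so 5 arrays lay above every wild-type array and replicate 6 below them all. The log2 difference was 0.93 (SE 0.37, adjusted p = 0.19). Both other Kcnd2 probe sets, below the filter, had positive differences too, of 0.95 (SE 0.33) and 1.63 (SE 0.44). Without Apoe-deficient replicate 6 the difference was 1.30 (adjusted p = 0.0076), and without the 3 low arrays it was 0.27 (adjusted p = 0.84). The low level held the 3 highest values of Kcnd2, and the difference was -0.36 within the high level (2 arrays against 2) and 1.28 (SE 0.26, adjusted p = 0.11) within the middle level, which held 1 Apoe-deficient array. Dpp6, which encodes a protein that binds Kv4 channels, differed by -0.06, and Kcnip4, a calcium sensor of the same channels, by 0.07 (SE 0.25).

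Other potassium channel classes held no changed gene. Among inward rectifiers 4 of 13 were tested (median 0.07). Kcnj12 differed by 0.56 (SE 0.22, adjusted p = 0.18) and Kcnj3, a subunit of the channel that G proteins open, by -0.27 (SE 0.13, adjusted p = 0.26). Kcnj6, its partner subunit, was at 0.09, and Kcnj10, the glial Kir4.1 gene, at 0.06 with signals of 537 ± 104 (SD, n = 6) and 533 ± 211 (SD, n = 5). Among K2P channels, which carry the resting leak, 2 of 8 were tested, Kcnk1 (0.21) and Kcnk4 (-0.14). Of the class set by gene name as calcium- or sodium-activated, 6 of 9 were tested (median -0.08). The name does not show that calcium or sodium opens each of them, Kcnu1 included. Kcnma1, the large-conductance BK pore gene, was at -0.31 (SE 0.18, adjusted p = 0.33). Kcnu1 was at 0.32, Kcnn4 at -0.27 and Kcnn2 at -0.01, and the BK beta subunit genes Kcnmb4 and Kcnmb2 at -0.14 and -0.03. Kcnmb4 had 1946 ± 231 (SD, n = 6) against 2129 ± 400 (SD, n = 5).

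No calcium channel gene and no HCN gene passed the threshold. Of 9 alpha1 genes 2 were tested. Cacna1f, an L-type pore gene best known from the retina, had wild-type signals of 201, 167, 160, 105 and 210 and Apoe-deficient signals of 45.4 to 118 (-0.75, SE 0.20, adjusted p = 0.070). It passed the filter in 5 wild-type arrays and 1 Apoe-deficient array, and without the 3 low arrays it was at -0.94 (adjusted p = 0.21). Cacna1d, another L-type gene, differed by -0.39 (SE 0.16, adjusted p = 0.20), while its other probe set past the filter gave 0.12. Among genes classed by name as auxiliary subunits, 6 of 14 were tested (median -0.06). The Cacng genes are in this class by name only, which does not show that each serves a calcium channel. Those of smallest p were Cacnb1 (-0.42, adjusted p = 0.17), Cacna2d3 (-0.33, adjusted p = 0.24) and Cacnb4 (0.28, adjusted p = 0.36). Hcn3, a pacemaker channel gene, had wild-type signals of 479, 499, 456, 274 and 448 and Apoe-deficient signals of 224 to 417.5, for a difference of -0.56 (SE 0.16, adjusted p = 0.091). Wild-type replicate 4 stood with the Apoe-deficient arrays and Apoe-deficient replicate 5 near the wild-type ones, and without wild-type replicate 4 the difference was -0.69 (adjusted p = 0.030). Hcn2 was at -0.06.

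**Figure D2:**
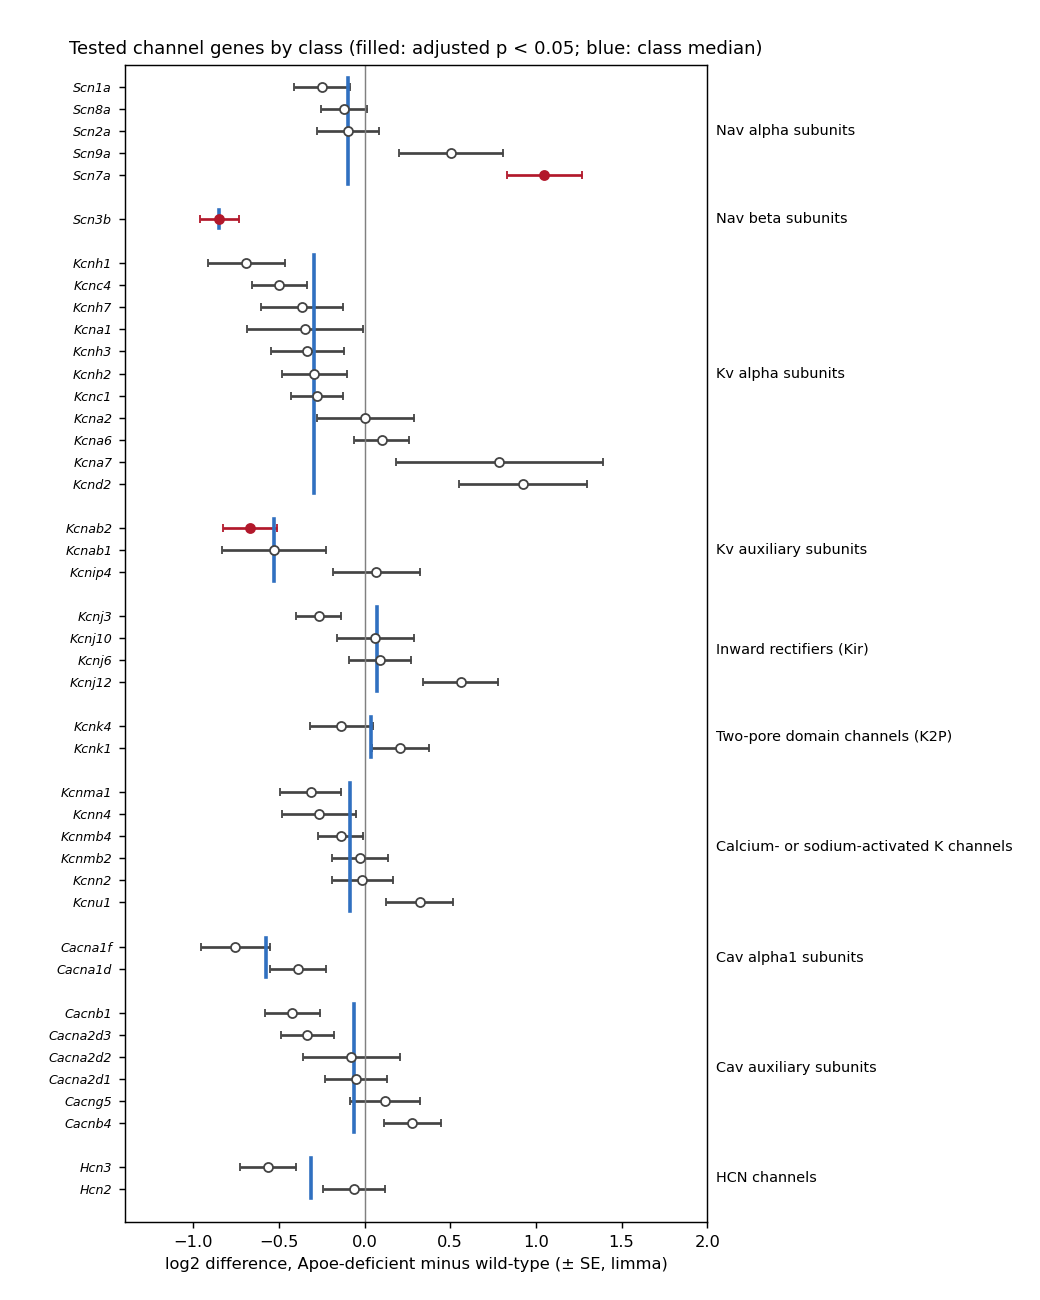
Log2 difference with its SE for each of the 42 tested channel genes, ordered within 10 classes. Filled points passed the threshold, blue lines are class medians, and the 3 filled points are Scn7a, Scn3b and Kcnab2.

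Over the 42 tested genes the median difference was -0.13, and 28 lay below 0, or 66.7%. All genes tested had a median of -0.04 with 57.0% below 0. Over all 96 channel genes without the filter the median was -0.06, with 58.3% below 0 against 56.9% of all genes, so the lean was smaller when low signals were kept. Class medians of tested genes ran from -0.85 for the single beta subunit gene and -0.57 for the Cav alpha1 pair to 0.07 for inward rectifiers. Without the filter the medians were -0.06 for Kv pores, -0.09 for Cav alpha1 genes and 0.01 for Kv auxiliary subunits, each from more genes. The medians are a description of unequal and mostly small classes and were not tested.

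**Figure D3:**
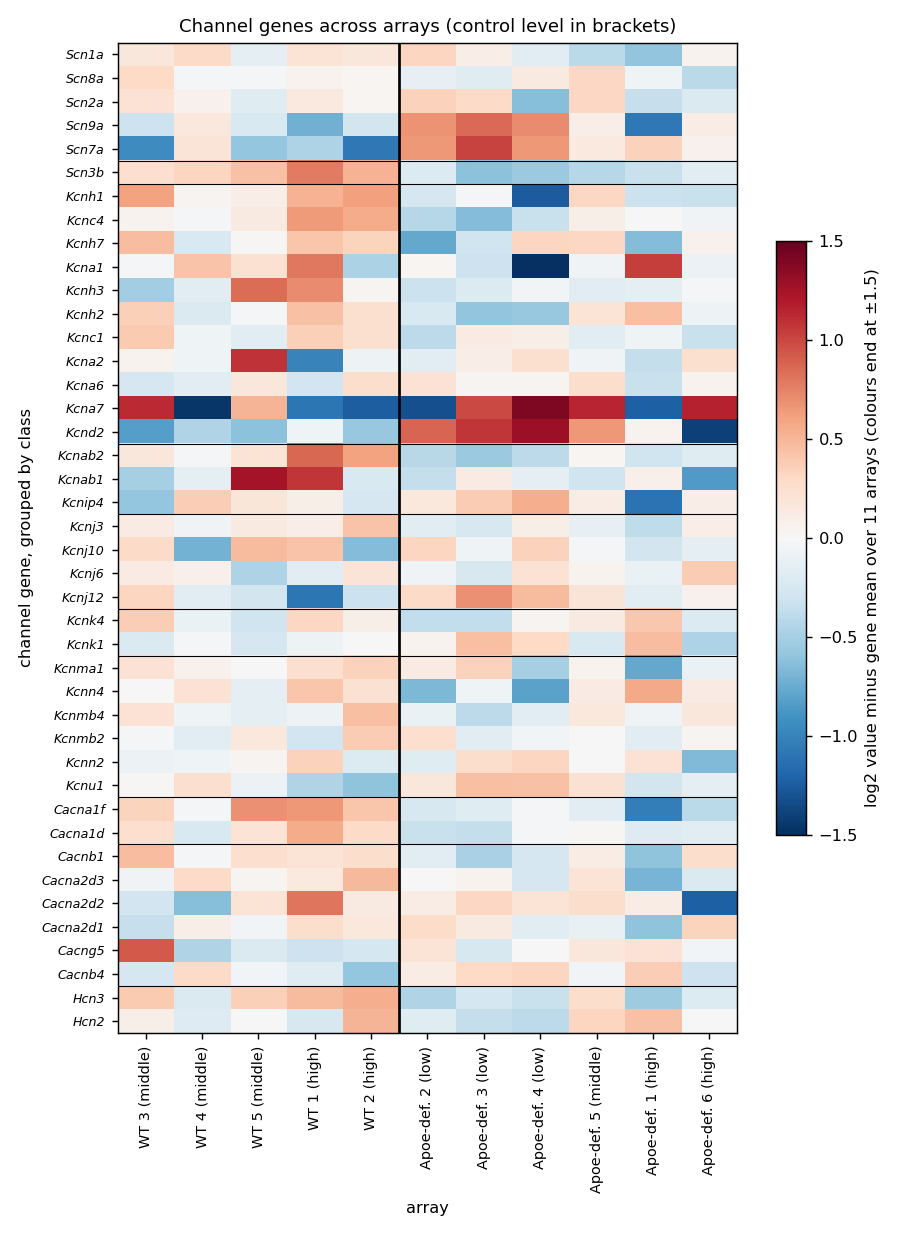
Each gene's log2 value, centred on its mean of all 11 arrays, for the 42 tested channel genes, with arrays ordered by genotype and control level. Scn3b is above its mean in 5 of 5 wild-type arrays and below it in 6 of 6 Apoe-deficient arrays, while the Kcna7, Kcna1 and Kcnab1 rows vary within a genotype.

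Several channels known from sympathetic neurons were not tested. Of 23 such genes listed by role, 8 were tested, 10 lay below the filter and 5 were not analysed here. The N-type calcium channel gene Cacna1b, which serves transmitter release in these neurons, read 9.78 ± 4.59 (SD, n = 6) and 12.6 ± 4.69 (SD, n = 5). Others below the filter were the P/Q-type gene Cacna1a, the L-type gene Cacna1c, the M-current gene Kcnq5, the A-type genes Kcna4 and Kcnd3, and Scn3a, Kcnn3, Kcnk2 and Kcnk10. A low signal of one probe set does not give the level of the channel. Chosen after its values were seen, Kcnip3, a calcium-binding partner of Kv4 channels also below the filter, read 54.0 ± 22.4 (SD, n = 6) against 119 ± 34.0 (SD, n = 5), a difference of -0.93 (adjusted p = 0.073 when every gene was tested). The other Kcnip3 probe set, below the filter too, differed by -0.14 (SE 0.15). Cacng2, chosen in the same way and below the filter, differed upward by 1.08 (SE 0.35, adjusted p = 0.15 when every gene was tested).

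Where a tested gene had more probe sets past the filter, they mostly pointed the same way. There were 5 such further probe sets, and 4 had the sign of the one used, the exception being Cacna1d. Of 21 further probe sets below the filter 10 had the same sign.

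Genes whose products bind or place these channels were read from the same fit. Of 42 listed, 28 were on the array, 20 were tested and 0 passed, with a median of -0.11. Smallest p-values went to Vamp2, the vesicle protein synaptobrevin (-0.49, SE 0.12, adjusted p = 0.055), Cntnap2, which clusters Kv1 channels beside the node (-0.46, SE 0.15, adjusted p = 0.12), and Fgf12, a cytoplasmic partner of sodium channels (0.48, SE 0.16, adjusted p = 0.13). Ank3, the ankyrin that anchors sodium channels at the axon's start, was at -0.10 (SE 0.16).

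Without the 3 low arrays 37 of the 42 genes were tested, and the other 5 (Scn9a, Kcna2, Kcna7, Kcnh7 and Kcnj6) no longer passed the filter. The filter still asked for 5 arrays, now out of fewer, so it was stricter than with all arrays. Differences changed sign for 8 genes, none of them called with all arrays. Kcna1 went from -0.35 to 0.11, Kcnh2 from -0.29 to 0.03, Kcnn4 from -0.27 to 0.12 and Hcn2 from -0.06 to 0.22. Kcnip4 went from 0.07 to -0.26, Kcnj10 from 0.06 to -0.11, Kcnk4 from -0.14 to 0.04 and Kcnmb4 from -0.14 to 0.01. Among genes that kept their sign, Kcnj12 went from 0.56 to 0.33, Kcnu1 from 0.32 to 0.11, Kcnk1 from 0.21 to 0.04 and Cacnb4 from 0.28 to 0.16. Scn1a went from -0.25 to -0.45 and Cacna2d2 from -0.08 to -0.32.

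**Figure D4:**
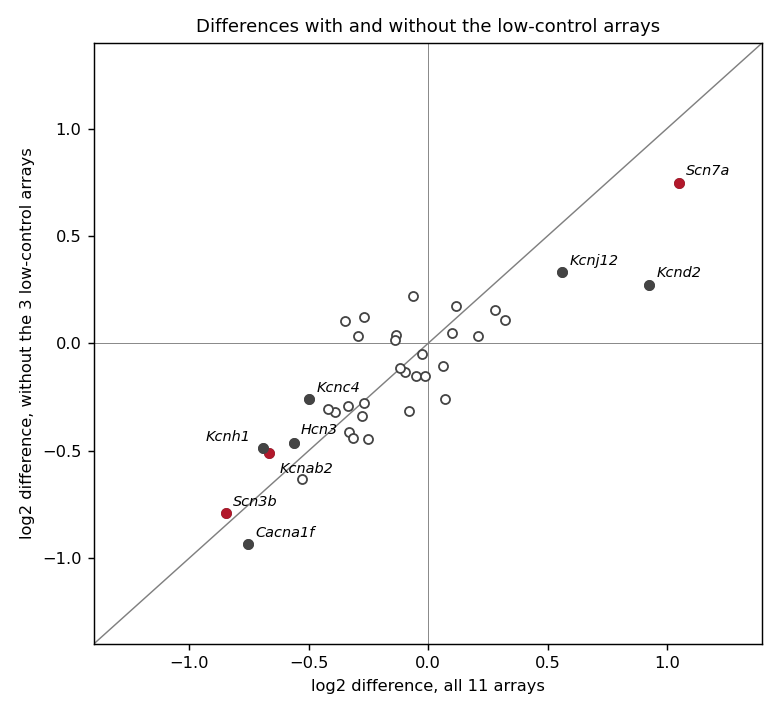
Log2 difference of channel genes with all 11 arrays (horizontal axis) and without the 3 arrays of the low control level (vertical axis), with the line of equality. Of 37 genes tested both times 29 kept their sign; Scn3b lies at -0.85 and -0.79 and Kcnd2 at 0.93 and 0.27.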

How the data were processed

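The deposited values are probe set signals, that is, intensity values on a linear scale, made by the authors with GCOS 1.4 according to the labels (per the submitters' processing notes). For the signal algorithm, the sources used here give no name, and detection calls were not used. Each array had a 2% trimmed mean near 500.2, a sign of scaling to one mean. The number of arrays limits the precision.

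Members and lists were chosen with earlier results of these data known. The log2 of the signal + 16 was quantile normalised. A probe set had to exceed, in 5 or more arrays, the 40th percentile of the table, and the single-gene probe set of highest mean stood for a gene. limma 3.58.1 in R 4.3.3 (linear model, intensity trend, two-sided) was fitted to 8433 genes with Benjamini-Hochberg adjustment, and the script was tested on simulated data. Hybridisation control levels were set at the 2 widest gaps of the mean control signal. Alternatives covered normalisation, pseudocount, filter, probe set rule, variance model, array weights, blocks and left-out arrays. Named were Scn3b, Kcnab2, channel genes past the threshold, the 3 of smallest p in each class, those of a role list and the 3 partner genes of smallest p; others named were chosen after their values were seen. Figures were drawn with matplotlib 3.10.9.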

Additional observations from a re-analysis of the deposited data

Results flagged for a closer look

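In 5 of 56 groups of arrays, over Apoe and 27 named channel genes, 1 array stood apart from the rest of its genotype, where chance flags about 1 in 20. Apoe was lowest in Apoe-deficient replicate 3 (log2 value 4.64). For the channel genes, Scn1a was low in wild-type replicate 5 (7.79, difference -0.32 without it against -0.25), and Kcnip4 was low in Apoe-deficient replicate 1 (8.70, difference 0.30 without it against 0.07, adjusted p = 0.28). Hcn3 was low in wild-type replicate 4 (8.26), and its difference passed the threshold without that array, as given above. Scn8a was high in wild-type replicate 3 (8.51, difference -0.06 without it against -0.12).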

How the results depend on the processing

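The 3 called channel genes became 7 with array weights (668 genes in all against 163), 1 with the control level as a block (45 in all), 0 within the high level (4 in all) and within the middle level (57 in all), and 1 without the 3 low arrays (24 in all). Fits that left out a single array called 1 to 5 channel genes and 75 to 267 genes in all. Scn3b kept its call in 24 of 27 alternatives, Scn7a in 16 and Kcnab2 in 13, and each kept its direction in all 27. Scn3b lost its call with the mean of its probe sets and within each control level. That mean took only probe sets past the filter. Kcnab2 and Scn7a each had 1 of these, so it could not change their differences. Fits within the high level compared 2 arrays with 2, and in the middle level the lone Apoe-deficient array was assumed to vary like the others. Kcnab2 lost its call without the filter (adjusted p = 0.057), without the intensity trend (adjusted p = 0.058) and with the replicate block (adjusted p = 0.055). Both Kcnab2 and Scn7a lost theirs in each fit that left out one of Apoe-deficient replicates 2 to 4 or of wild-type replicates 1, 2, 3 and 5. With array weights Kcnc4, Kcnd2, Cacna1f and Hcn3 were called too, Hcn3 also without Apoe-deficient replicate 5, and Cacna1f (adjusted p = 0.041) without wild-type replicate 4. The median difference of channel genes was -0.28 with the stricter filter, -0.32 within the high level and 0.072 within the middle level. Of the 24 uncalled named genes 14 changed sign under at least 1 alternative, without being called in either direction there. The Apoe difference ran from -7.08 to -6.15. Deviations of same-numbered arrays correlated from -0.18 to 0.15. They were not set against pairs of unlike number, so whether replicate numbers pair the arrays cannot be told. With the replicate block 3 channel genes were called, Scn3b, Scn7a and Kcnd2. Causes of these moves were not tested.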
